A study of Gallus gallus with 12 samples.

Results

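The genes described here serve protein folding and stress signalling in the endoplasmic reticulum (ER), the compartment where secreted and membrane proteins enter and fold. A list of 39 symbols was taken, and 35 of them had a row by that symbol in the deposited count table of 30742 genes. DDIT3, TRIB3, SYVN1 and OS9 are not analysed here. All 35 passed the filter on low counts in every comparison, and the lowest count of any of them in any library was 35.

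RNA was sequenced from brain tissue that White Leghorn chicken embryos gave on day 18 of incubation, to ask how warmer incubation changes gene expression in the brain. Control embryos (CT) stayed at 37.8 °C, and embryos given embryonic thermal manipulation (ETM, called heat-exposed here) were kept at 39.5 °C from day 13 to day 18. Tissue was labelled hypothalamus or whole brain, with 3 libraries in each of the 4 groups, all under 1 batch label. The labels give neither the sex nor the number of embryos behind a library, so a p-value here reflects variation among the libraries, which may in part be technical.

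Library totals ran from 13309467 to 18317019 counts, and the 35 genes together took 0.323 to 0.411% of them. The tissue label was checked against marker genes. NKX2-1, a regulator of the ventral hypothalamus, was at 0 to 1.25 CPM (counts scaled to the size of the library) in the libraries labelled hypothalamus and at 4.86 to 6.53 CPM in whole brain. It is 1 of 8 hypothalamus markers, which summed to 12.04 to 52.3 CPM under the hypothalamus label and 15.1 to 23.7 CPM in whole brain. OTP alone was at 43.1 CPM in control hypothalamus-labelled library 1, which had the highest sum. Between control tissues 3 of the 8 were called higher under the hypothalamus label (OTP, SIM1 and HMX3) and 3 lower. The control means of NKX2-1, FEZF1 and POMC were 0.0459, 0.132 and 0.109 CPM under that label and 5.62, 2.93 and 3.55 CPM in whole brain. A list of 7 markers of serotonin neurons and the hindbrain summed to 95.2 to 801 CPM under the hypothalamus label and to 37.1 to 83.0 CPM in whole brain. For 6 pallial markers the sums were 23.1 to 40.6 and 394 to 558 CPM. With markers on both sides, these libraries are called hypothalamus-labelled. The share of counts on the W chromosome, which female birds carry, was 0.113 to 0.147% in control hypothalamus-labelled library 3, heat-exposed hypothalamus-labelled library 2 and heat-exposed whole brain library 1, and 0.0105 to 0.0174% in the others.

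When unfolded proteins build up in the ER, the transmembrane sensors ATF6, ERN1 (IRE1) and EIF2AK3 (PERK) start the unfolded protein response, a programme worked out mainly in yeast and mammals. ATF6 is cut to release a transcription factor, ERN1 splices the XBP1 mRNA, and EIF2AK3 slows translation while favouring that of ATF4. The targets are chaperones, disulfide isomerases, parts of the translocon through which new proteins enter the ER, and the ER-associated degradation (ERAD) machinery that returns misfolded proteins to the cytosol. Gene counts do not show cleavage, splicing of XBP1 or translation, so the values below are RNA levels of each gene alone.

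Levels are CPM after TMM scaling over all 12 libraries, given as mean ± SD of 3 libraries. Scaled to gene length, the group means spanned from 0.581 CPM per kb for UGGT2 to 380 CPM per kb for CALR. CALR, the lectin chaperone calreticulin, was the highest per length in all 4 groups, at 309 to 380 CPM per kb. PDIA3, the disulfide isomerase that works with it on glycoproteins, came next at 162 to 201 CPM per kb. The lowest per length were UGGT2 and the stress-induced factor ATF3. For XBP1 the highest group mean was 1.06 times the lowest, and for UGGT1 it was 1.04 times. The widest range over groups was that of CHAC1, at 2.45 times, followed by SEL1L at 2.26 times and ATF3 at 2.22 times. Within groups the 35 genes varied by a median SD of 0.122 on the log2 scale, against 0.202 over 16201 genes tested. P4HB was the steadiest, with an SD of 0.0529, and CHAC1 the most variable, with 0.385.

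In whole brain, RNA of some chaperones and disulfide isomerases was higher after heat: SDF2L1, ERP29, ERP44, PDIA4 and UGGT2 rose by 1.32 to 1.71-fold. In all, 5 of 9 chaperones and cofactors and 3 of 6 disulfide isomerases were called higher. The genes and lists were chosen with earlier results of these data known. The sensor ATF6 fell, and the transcription factors XBP1 and ATF4 were not called. With edgeR's quasi-likelihood test and Benjamini-Hochberg adjustment over all genes, 13 of 35 genes were called at an adjusted p below 0.05, which is 37.1%. That share stands beside 44.3% of all 15305 genes tested, so the number of changed ER genes was no larger than the background. The direction was less even. Of the 35 genes, 11 rose, which is 31.4% against 21.1% of all genes, and 2 fell, which is 5.71% against 23.2%. The median log2 fold change of the 35 was 0.12, against 0.0118 over all genes. Every heat-exposed library was above every control library for 16 of the 35 (45.7%, against 30.5% of all genes) and below for 3 (8.57%, against 26%). The shares over all genes, here and below, are not matched for spread, and the 35 genes varied less within groups. In bulk tissue such as this, fewer cells of a type and less RNA per cell cannot be told apart.

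**Figure D1:**
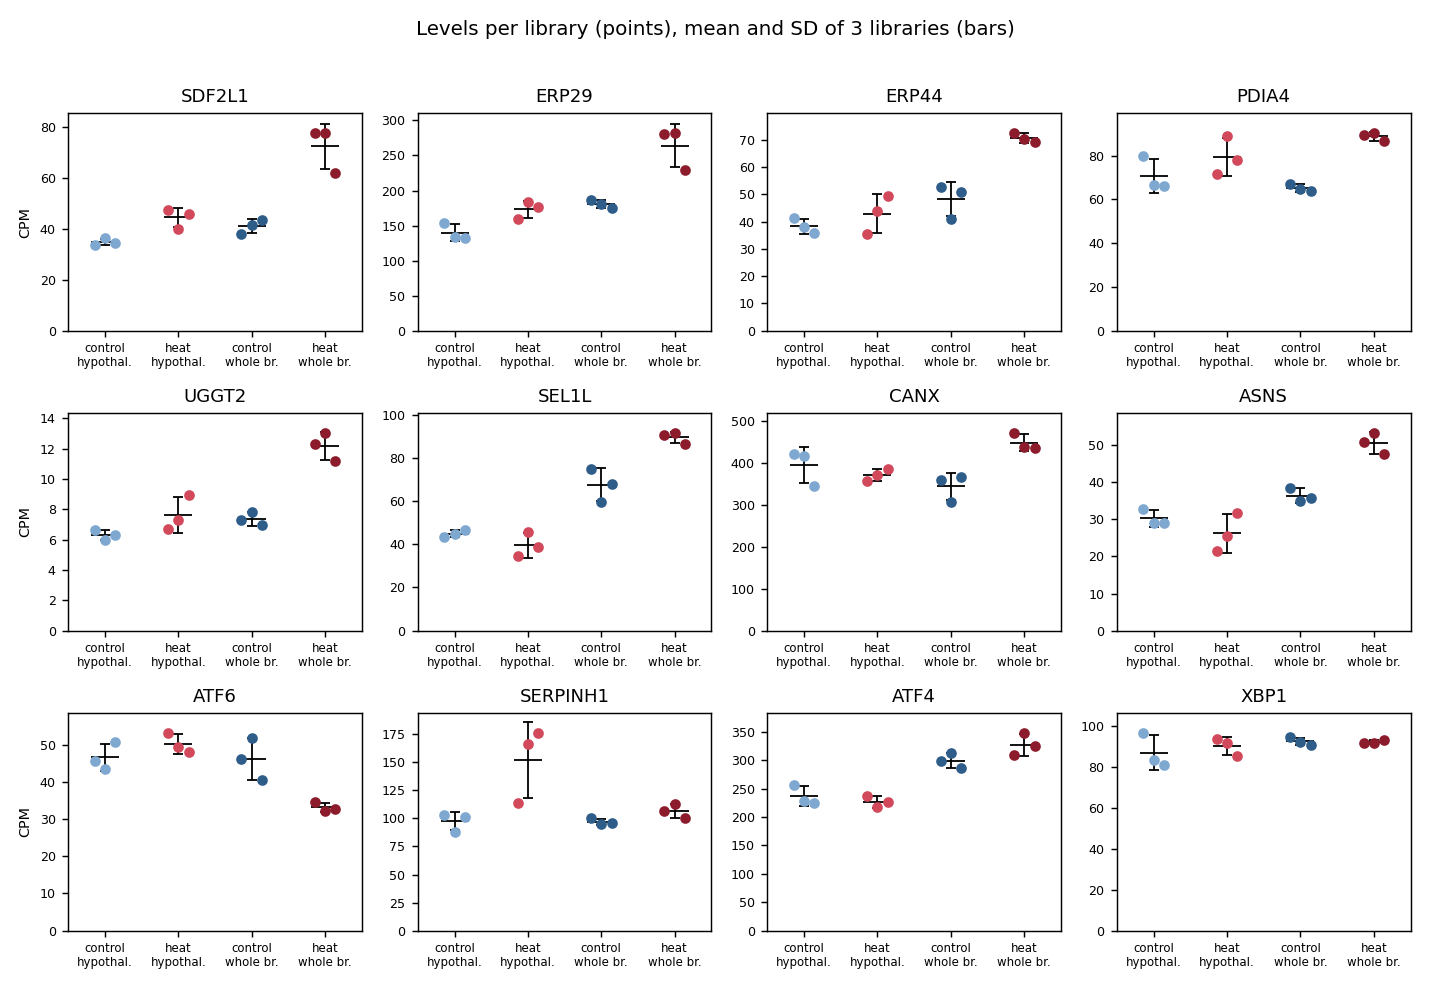
CPM in each library (points) with mean and SD of 3 libraries (bars) for 12 ER genes, in control and heat-exposed hypothalamus-labelled and whole brain groups; every axis starts at 0. SDF2L1 lies at 38.1 to 43.6 CPM in control and 62.1 to 77.8 CPM in heat-exposed whole brain, while XBP1 stays between 80.9 and 96.6 CPM in all 12 libraries.

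Among the sensors, ATF6 (chromosome 8, 3720327 to 3792623, build GRCg7b) was at 46.2, 51.7 and 40.4 CPM in control whole brain libraries 1 to 3. In the heat-exposed libraries it was at 34.6, 32.1 and 32.6 CPM. All 3 heat-exposed values were below the lowest control, and the log2 fold change was −0.52 ± 0.105 (SE; adjusted p = 0.00255). The end of ATF6 overlaps OLFML2B, a gene on the opposite strand, by 966 bases. OLFML2B fell by 0.80 on the log2 scale in the same libraries (adjusted p = 0.000195), and since the strand setting of the counting is not given in the sources used here, the part of shared reads in the fall of ATF6 was not tested. ERN1 was at 14.01 to 16.8 CPM in control and 16.9 to 18.4 CPM in heat-exposed whole brain, without overlap, but the log2 difference of 0.16 ± 0.12 missed the threshold (adjusted p = 0.292). For EIF2AK3 the groups overlapped, and the difference was 0.06 ± 0.10.

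None of the 3 transcription factors was called in whole brain. XBP1 was at 92.5 ± 1.77 CPM in control and 92.1 ± 0.793 CPM in heat-exposed libraries, and the interval of 2 SE around its log2 fold change ran from −0.19 to 0.10. XBP1 overlaps ZNRF3, on the opposite strand, by 1501 bases. ZNRF3 fell by 0.35 (adjusted p = 0.0108 in edgeR) and averaged 24.8 CPM over all libraries, against 90.4 CPM for XBP1. The part of shared reads was not tested. ATF4 was at 299 ± 12.8 and 327 ± 19.9 CPM, with an interval from −0.06 to 0.24. ATF3, at 2.89 ± 0.149 and 3.23 ± 0.822 CPM, had the widest interval of the 3, from −0.39 to 0.63. With an offset for gene length in each library ATF4 was called, at 0.27 (adjusted p = 0.0158).

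ASNS and CHAC1 are targets of ATF4 in mammals. ASNS, which makes asparagine, was at 38.5, 34.8 and 35.7 CPM in control whole brain and at 50.9, 53.2 and 47.5 CPM after heat. The groups did not overlap, and ASNS rose by 0.43 ± 0.0887 on the log2 scale (adjusted p = 0.00278). CHAC1, which breaks down glutathione, was at 3.92 to 8.12 CPM in control and 5.03 to 6.10 CPM in heat-exposed libraries. Its heat-exposed values lay inside the control range.

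A separate list of 21 genes of the ATF4 response, of which 14 had a row, is called amino acid genes here. It also holds VLDLR and EIF4EBP1, which are not amino acid genes. In whole brain 7 of 14 tested (50%), EIF4EBP1 among them, fell and 0 rose, against 23.2% and 21.1% of all genes. That list does not hold ASNS, which rose, and it was chosen with earlier results of these data known. The serine synthesis enzyme PHGDH fell by 1.18 on the log2 scale, the amino acid transporter SLC7A5 by 0.65, and the tRNA synthetases SARS1 and AARS1 by 0.63 and 0.72. PHGDH went from 162 ± 17.5 to 73.2 ± 5.01 CPM (adjusted p = 5.65e-05).

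Of the 9 chaperones and their cofactors, 5 (55.6%) rose in whole brain and 0 fell, against 21.1% and 23.2% of all genes. SDF2L1, a partner of the ER chaperone BiP and its DNAJ cofactors in mammals, had the largest log2 fold change of the 35 genes. It lies on chromosome 15 (404404 to 411477) and was at 38.1, 41.7 and 43.6 CPM in control and 77.8, 77.7 and 62.1 CPM in heat-exposed libraries. The lowest heat-exposed library was well above the highest control. SDF2L1 rose 1.71-fold, by 0.77 ± 0.105 on the log2 scale (adjusted p = 0.000313).

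UGGT2, a relative of the enzyme UGGT1 that marks unfolded glycoproteins for another round of folding, was at 7.33, 7.81 and 6.93 CPM in control and 12.3, 13.0 and 11.2 CPM in heat-exposed whole brain. It rose by 0.68 ± 0.141 (adjusted p = 0.00293), whereas UGGT1 itself, at 44.1 ± 5.89 and 44.8 ± 3.62 CPM, overlapped between groups with a difference of −0.02 ± 0.113. UGGT2 overlaps DNAJC3, a cochaperone gene on the opposite strand with a mean of 102 CPM over all libraries, by 1419 bases. DNAJC3 also rose, by 0.36 ± 0.091, and the part of shared reads was not tested. The log2 value of UGGT2 was 0.32 when tested on log2(FPKM + 1), a scale that understates the change of low genes.

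Calnexin and calreticulin are the paired lectin chaperones of glycoprotein folding. CANX, calnexin, the membrane-bound one, was at 360.0, 308 and 367 CPM in control and 472, 440 and 436 CPM after heat, without overlap. It rose by 0.34 ± 0.0871 (adjusted p = 0.00906). CALR, calreticulin, was at 520 to 612 CPM in control and 536 to 573 CPM in heat-exposed libraries, inside the control range, and was not called. The difference between the genes was not tested.

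HYOU1, a large chaperone that recharges BiP, was at 181, 194 and 182 CPM in control and 229, 219 and 215 CPM in heat-exposed whole brain. It rose by 0.21 ± 0.0724 (adjusted p = 0.0382), the smallest change called among the 35, and the call was lost in 5 of 6 fits that left out 1 library (adjusted p from 0.0572 to 0.15). CRELD2, an ER stress-induced protein, was at 21.4 to 24.1 CPM in control and 27.8 to 32.2 CPM after heat. It rose by 0.36 ± 0.104 (adjusted p = 0.0158), and was not called without control library 2 (0.0501) or heat-exposed library 1 (0.057). MANF, a secreted survival factor kept in the ER, was at 69.3 ± 4.68 and 77.7 ± 5.84 CPM and was not called (0.12 ± 0.0867), but was with the offset for gene length (0.34, adjusted p = 0.00924).

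SERPINH1 (HSP47), the chaperone of collagen, was at 96.97 ± 2.83 CPM in control and 107 ± 6.33 CPM in heat-exposed whole brain, with overlap between the libraries and a log2 difference of 0.09 ± 0.0767. In the same libraries the collagens that it helps to fold fell. Of 9 fibroblast markers tested, 6 fell and 1 rose, and COL1A1, COL1A2, COL3A1 and COL6A3 fell by 1.90, 1.34, 0.91 and 0.60 on the log2 scale.

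Of the 6 members of the disulfide isomerase family, 3 rose in whole brain and 0 fell, again beside 21.1% and 23.2% of all genes. ERP29, a member without the active-site cysteines, lies on chromosome 15 (6275961 to 6280033). It was at 187, 181 and 176 CPM in control and 281, 282 and 229 CPM in heat-exposed libraries. The groups stood clear of each other, and ERP29 rose 1.41-fold, by 0.50 ± 0.0906 (adjusted p = 0.00139). TRAFD1, on the other strand across 3554 bases of ERP29, averaged 18.0 CPM over all libraries, against 189 CPM for ERP29.

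ERP44, which retrieves unassembled proteins from the Golgi, was at 52.8, 41.1 and 51.0 CPM in control and 72.5, 70.3 and 69.2 CPM in heat-exposed whole brain. PDIA4 was at 67.0, 64.9 and 63.7 CPM and at 89.7, 90.4 and 86.6 CPM. In both genes the heat-exposed libraries were tightly grouped and above all controls. ERP44 rose by 0.51 ± 0.104 (adjusted p = 0.00276) and PDIA4 by 0.40 ± 0.0739 (adjusted p = 0.00148). PDIA3, PDIA6 and P4HB were not called, with differences of 0.06, 0.13 and −0.02. With the offset for gene length PDIA3 was called, at 0.23 (adjusted p = 0.0204). P4HB, which is also a subunit of the enzyme that hydroxylates collagen prolines, was at 162 ± 3.54 and 165 ± 0.234 CPM.

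In the ERAD group, 2 of 7 genes (28.6%) rose, near the 21.1% of all genes. SEL1L, the adaptor of the ubiquitin ligase HRD1, was at 75.0, 59.6 and 68.1 CPM in control whole brain and at 90.4, 91.5 and 86.6 CPM after heat. It rose by 0.36 ± 0.0949 (adjusted p = 0.00983). DERL1, part of the exit route from the ER, was at 64.9 to 76.3 CPM in control and 79.8 to 93.9 CPM in heat-exposed libraries. It rose by 0.29 ± 0.0948 (adjusted p = 0.0293), and the call was lost in 4 of 6 fits that left out 1 library (adjusted p of 0.0908 and 0.082 without control library 2 or 3, and 0.0913 and 0.0979 without heat-exposed library 1 or 2). DERL2 went from 16.2 ± 2.51 to 20.7 ± 0.736 CPM without passing the threshold (0.31 ± 0.132, adjusted p = 0.0762), and passed it without control library 1 (0.45, adjusted p = 0.0174). HERPUD1, a sensitive target of the unfolded protein response in mammals, was at 23.95 ± 0.727 CPM in control and 20.9 ± 1.14 CPM in heat-exposed libraries. Every heat-exposed value was below the controls, and the difference of −0.24 ± 0.102 was not called (adjusted p = 0.08). EDEM1, EDEM2 and EDEM3, which trim sugars from misfolded glycoproteins, were not called, at −0.10, 0.10 and 0.14.

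Among the 5 translocon genes, SSR2, a subunit of the translocon-associated TRAP complex, was at 66.5, 77.3 and 68.3 CPM in control and 62.5, 62.1 and 52.5 CPM in heat-exposed whole brain. It fell by 0.30 on the log2 scale (SE 0.0957, adjusted p = 0.0248), and the call was lost without control library 2 (adjusted p = 0.0606) or heat-exposed library 3 (0.0919). It was also lost in the 3 limma fits on FPKM and in 1 fit of all 12 libraries, so that 6 of 18 alternatives lost it and another turned its sign. SSR2 overlaps CTSS, on the opposite strand, by 3255 bases. CTSS fell by 0.77 (adjusted p = 0.0375 in edgeR) and averaged 2.84 CPM over all libraries, against 66.3 CPM for SSR2. The part of shared reads was not tested. The other TRAP subunits SSR1 and SSR3 were at 0.08 ± 0.0929 and 0.13 ± 0.0885. The pore subunit SEC61A1 and its small partner SEC61B were at 0.02 ± 0.0753 and 0.03 ± 0.142.

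**Figure D2:**
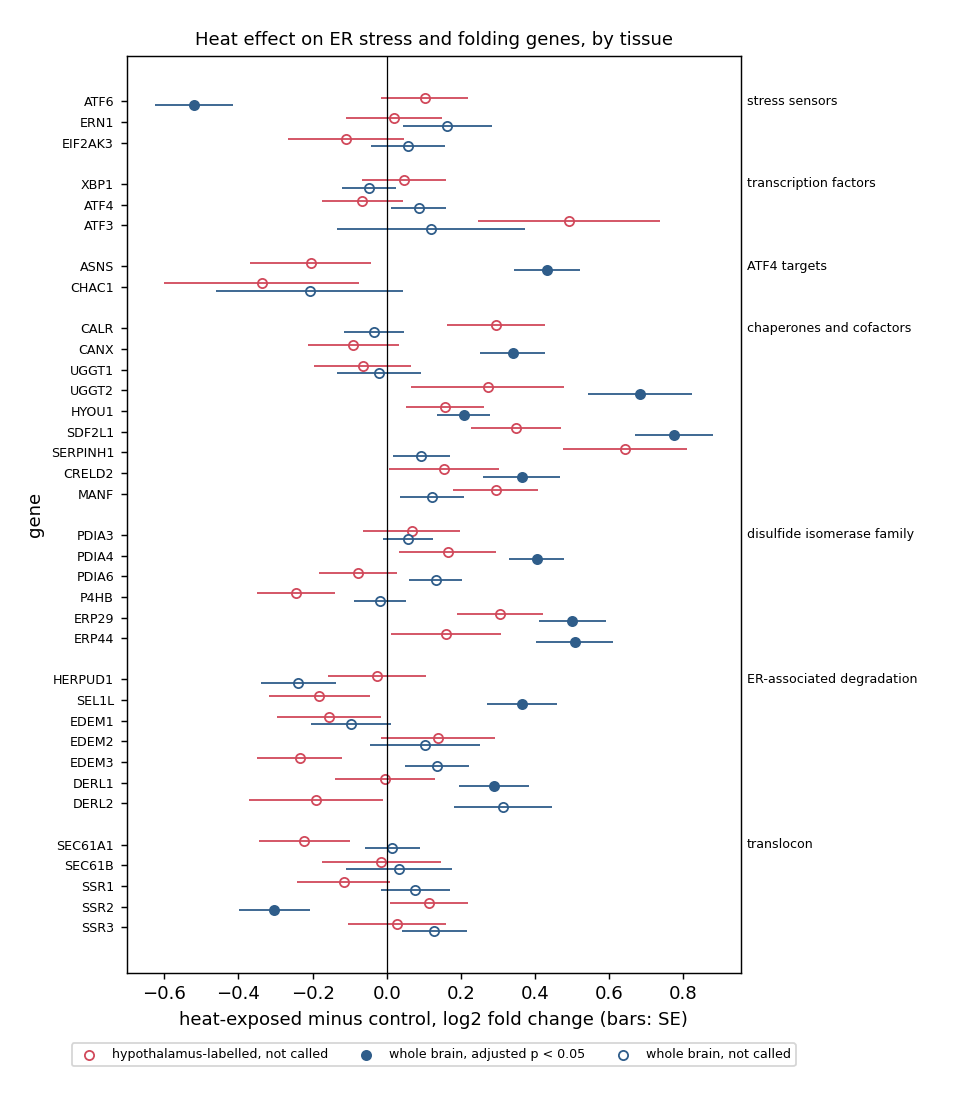
Log2 fold change of heat-exposed over control libraries (x axis, bars: SE) for the 35 genes by role, in hypothalamus-labelled (red) and whole brain (blue) libraries, with filled points for an adjusted p below 0.05. In whole brain 11 filled points lie above 0 and 2 (ATF6 and SSR2) below, and no hypothalamus-labelled point is filled.

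Heat effects in whole brain differed by chromosome. The median log2 fold change of all genes tested was 0.171 on chromosome 1 and 0.214 on chromosome 2, against −0.291 on chromosome 24, −0.461 on chromosome 30 and −0.575 on chromosome 25. Of the 11 genes that rose, UGGT2 and CRELD2 lie on chromosome 1 and ASNS, PDIA4, ERP44 and DERL1 on chromosome 2. SEL1L lies on chromosome 5 (median 0.0729). SDF2L1 and ERP29 rose on chromosome 15 (median −0.0841), CANX on chromosome 13 (−0.11) and HYOU1 on chromosome 24. Of the 35 genes, 23 were above the median of their chromosome and 12 below.

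A fit with a median offset of each library per chromosome gave a log2 value of 0.48 for HYOU1, 0.30 for ERP44, 0.22 for ASNS and 0.19 for PDIA4, all still called. CRELD2 and DERL1 were then at 0.20 (adjusted p = 0.113) and 0.08 (adjusted p = 0.474). SSR2, which fell less than the median gene of chromosome 25, turned to 0.25 (adjusted p = 0.0547). CALR and ERN1 were called in that fit alone of those run, at 0.46 and 0.36, and DERL2 was called at 0.48, as it was with the offset for gene length (0.48, adjusted p = 0.016).

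**Figure D3:**
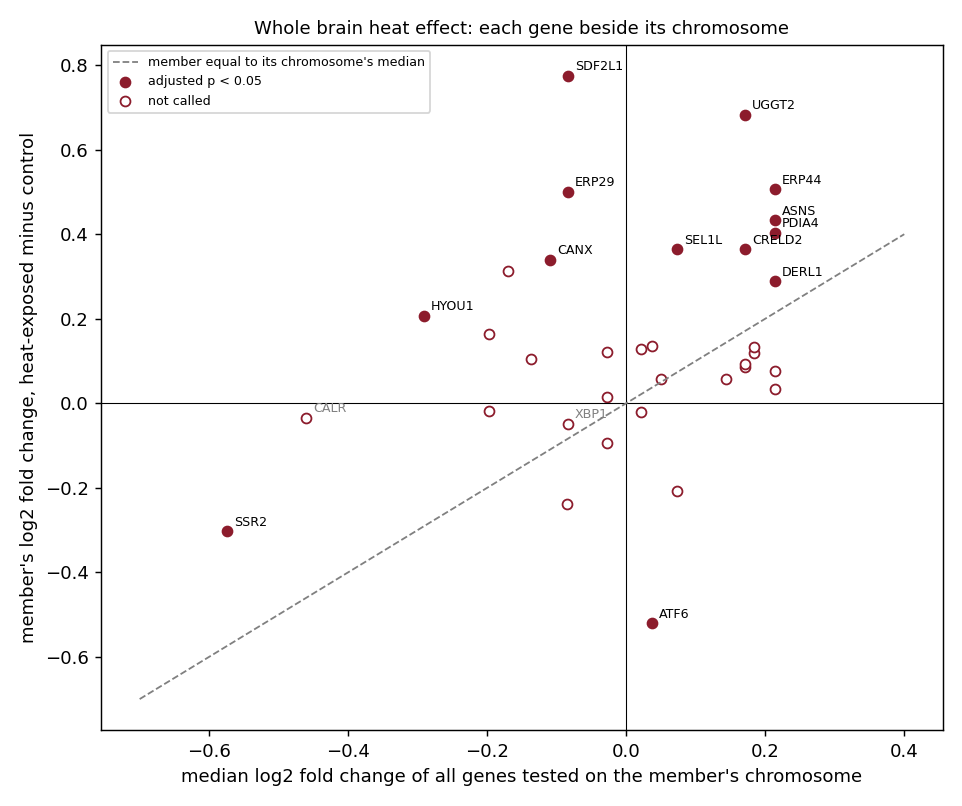
Log2 fold change of each of the 35 genes in heat-exposed against control whole brain (y axis) beside the median log2 fold change of all genes tested on its chromosome (x axis); the dashed line marks equality and filled points an adjusted p below 0.05. SDF2L1 and ERP29 rose on a chromosome with a median of −0.0841, and SSR2 lies above the line at a median of −0.575.

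Markers of other cell types also differed between the whole brain groups. The summed level of 9 fibroblast markers was 1531 to 1718 CPM in control and 651 to 758 CPM in heat-exposed libraries. Most of that sum was COL1A1 and COL1A2, with means of 650 and 546 CPM in control and 179 and 222 CPM in heat-exposed libraries. Of the 9 markers 6 were called lower and 1, LUM, was called higher, by 0.48 on the log2 scale. For 6 neuronal markers the sum was 3328 to 3590 and 4364 to 5081 CPM, with 4 called higher and 2, NEFL and RBFOX3, called lower. For 8 choroid plexus markers it was 887 to 1322 and 1349 to 1923 CPM, a sum made mostly of TTR (686 to 1102 and 1117 to 1686 CPM). Of those 8 markers 4 had a positive and 4 a negative log2 fold change, and 2 were called. The sums were, for 6 microglial markers 52.8 to 54.6 and 35.0 to 38.3 CPM, and for 3 red blood cell markers 468 to 723 and 183 to 458 CPM. None of these markers was at 0 in all libraries of a tissue, and their part in the changes of the ER genes was not tested.

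In a longer list of other ER genes, 15 of 56 tested (26.8%) were higher and 12 (21.4%) lower in whole brain, near the 21.1% and 23.2% of all genes. HSP90B1 (GRP94), the ER member of the HSP90 family, went from 356 ± 12.3 to 609 ± 22.6 CPM, a log2 fold change of 0.73 ± 0.0699 (adjusted p = 8.85e-05). SEC63, which helps BiP at the translocon, rose by 0.62. NPLOC4, a cofactor of the VCP segregase, fell by 0.80, and MOGS, the first glucosidase to trim the sugar chain of new glycoproteins, fell by 0.88. HSPA5 (BiP), the master chaperone of the ER, is named here after its values were seen. It was at 324 ± 10.7 CPM in control and 358 ± 5.97 CPM in heat-exposed whole brain, without overlap, and its log2 fold change of 0.10 ± 0.0681 was not called (adjusted p = 0.248). DNAJB9, also named after its values were seen, had the largest log2 fold change of that list. It went from 15.6 ± 3.42 to 33.3 ± 2.94 CPM, without overlap, a rise of 1.05 ± 0.156 (adjusted p = 0.000501 in edgeR). Under the hypothalamus label DNAJB9 was at 0.02 ± 0.199, and its heat effects differed by −1.06 ± 0.267 (adjusted p = 0.0136 in edgeR).

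In the hypothalamus-labelled libraries no ER gene was called. With edgeR's quasi-likelihood test 0 of 35 genes passed, beside 0.0454% of the 15405 genes tested (7 genes). The count at an unadjusted p below 0.05 in edgeR was 6 of 35, against 1594 of the 15405 genes. DESeq2 called 1 of the 35, SERPINH1, and called more of all genes than edgeR did. Its total over all genes is given with the alternatives at the end. All 3 heat-exposed libraries were above all controls for 8 of the 35 (22.9%, against 8.39% of all genes), and below for 2 (5.71%, against 7.75%). The 8 were SERPINH1, SDF2L1, ERP29, MANF, CALR, HYOU1, UGGT2 and SSR2, of which 6 are chaperones or cofactors, and the 2 were P4HB and EDEM3. The median log2 fold change of the 35 was 0.02, against 0.00734 over all genes.

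SERPINH1 (chromosome 1, 195370325 to 195379453) had the lowest p of the 35. It was at 103, 88.1 and 101 CPM in control and at 114, 167 and 176 CPM in heat-exposed libraries 1 to 3. Libraries 2 and 3 were far above the controls and library 1 only slightly. The log2 fold change was 0.64 ± 0.167 (unadjusted p = 0.0033, adjusted p = 0.247 in edgeR). It was 0.82 without heat-exposed library 1 (adjusted p = 0.045), and DESeq2 gave 0.64 with an adjusted p of 0.0368. Over all alternatives run the adjusted p of SERPINH1 ranged from 0.0368 to 0.588. The 9 fibroblast markers summed to 632, 1084 and 1048 CPM in heat-exposed libraries 1 to 3 and to 833 to 1157 CPM in controls, and their part was not tested.

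The deposited FPKM values of heat-exposed library 1 do not match its counts, unlike those of the other 11 libraries, and which of its columns belongs to the library could not be settled. Whole reads recovered from that column in place of its counts gave SERPINH1 a log2 fold change of 0.72 (adjusted p = 0.311). The numbers of genes without overlap between groups rest on the count column of that library and were not redone with the recovered reads.

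SDF2L1 was at 33.8, 36.3 and 34.6 CPM in control and 47.6, 40.2 and 45.9 CPM in heat-exposed hypothalamus-labelled libraries, a log2 difference of 0.35 ± 0.122 (adjusted p = 0.369 in edgeR). ERP29 was at 154, 134 and 132 CPM and at 160, 183 and 177 CPM, a difference of 0.30 ± 0.116 (adjusted p = 0.408). MANF was at 58.4 to 69.3 and 73.9 to 79.5 CPM (0.29 ± 0.114, adjusted p = 0.413). P4HB was at 143 to 161 CPM in control and 125 to 134 CPM in heat-exposed libraries (−0.24 ± 0.105, adjusted p = 0.467). In each of these 4 genes the groups did not overlap, while none passed the threshold.

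The sensors and factors of the stress response were not called either. ATF6 was at 46.6 ± 3.63 and 50.2 ± 2.66 CPM, and XBP1 at 87.0 ± 8.41 and 90.1 ± 4.33 CPM. ATF3 was at 4.29, 4.52 and 4.89 CPM in control and 4.80, 6.85 and 7.602 CPM in heat-exposed libraries, with 1 heat-exposed library inside the control range (0.49 ± 0.245, adjusted p = 0.524). CHAC1 was at 10.1 to 18.6 CPM in control and 9.19 to 14.7 CPM after heat. From the longer ER list, HSP90B1 was at 339 ± 35.6 and 460 ± 68.1 CPM, without overlap and not called (0.44 ± 0.146, adjusted p = 0.351). MAN1B1, MLEC and MOGS, all enzymes or readers of glycoprotein sugar chains, were at −0.26, 0.29 and 0.31, and 0 of 57 genes of that list and 0 of 14 amino acid genes were called.

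Sums of other cell type markers were compared in these libraries too. In edgeR 0 of 6 tested serotonin and hindbrain markers and 0 of 6 oligodendrocyte markers were called. The 7 serotonin and hindbrain markers summed to 580 to 801 CPM in control and 95.2 to 433 CPM in heat-exposed libraries, without overlap. The 6 oligodendrocyte markers summed to 10760 to 21850 and 17980 to 28960 CPM, with overlap. For 7 endothelial markers the sums were 373.5 to 441.4 and 310.3 to 359.9 CPM, without overlap, with 5 negative and 2 positive log2 values. For 8 choroid plexus markers they were 176.9 to 250.6 and 251.5 to 291.5 CPM, without overlap but by a slight margin. Of these 2 lists 0 markers were called in edgeR. Their part in the values above was not tested.

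**Figure D4:**
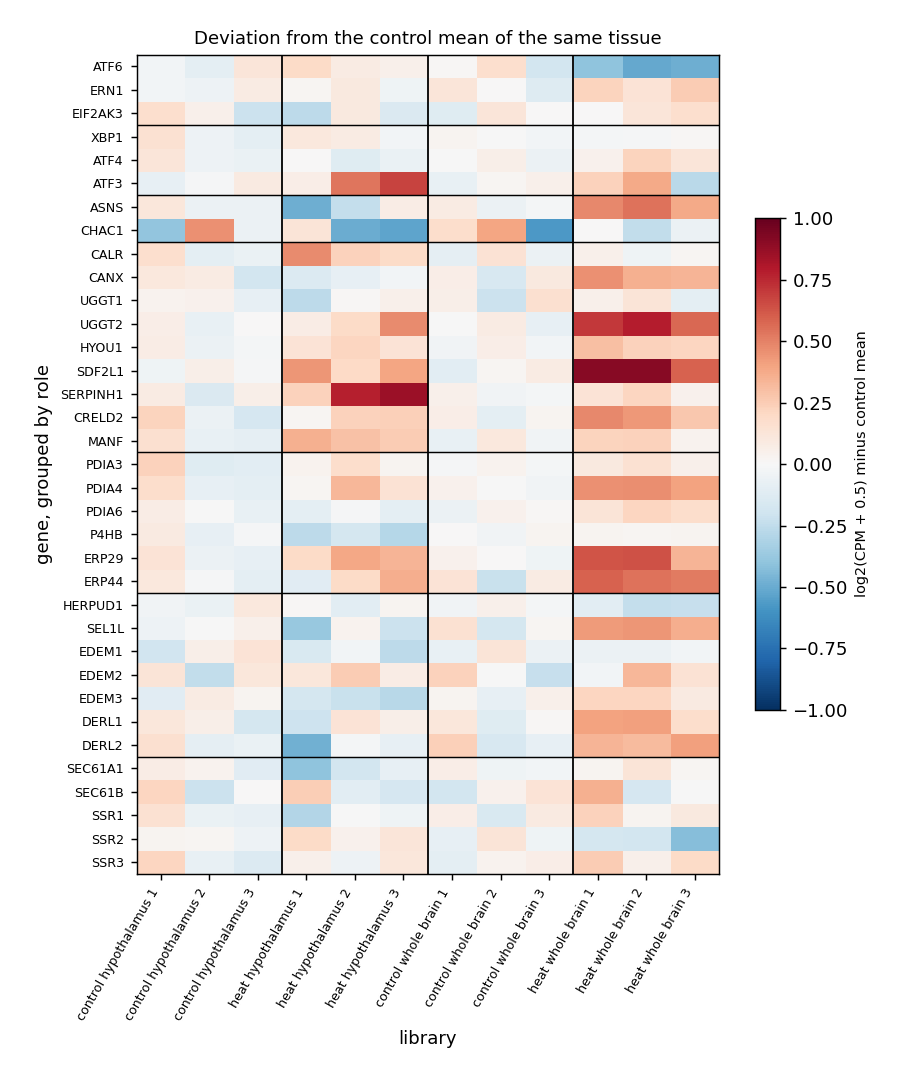
Deviation of each library from the control mean of its tissue, in log2(CPM + 0.5), for the 35 genes (rows, by role) in the 12 libraries (columns); red is above and blue below the control mean. Heat-exposed whole brain libraries are red for SDF2L1, UGGT2, ERP29 and ERP44 and blue for ATF6, and SERPINH1 is darkest in heat-exposed hypothalamus-labelled libraries 2 and 3.

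ERP29, HYOU1, SDF2L1 and UGGT2 were above all controls in every heat-exposed library of both tissues, and none of the 35 was below in both. For UGGT2 the margin under the hypothalamus label was slight, at 6.67 CPM in heat-exposed library 1 against 6.62 CPM in control library 1. Over 14769 genes tested in both tissues these shares were 1.76% and 1.12%. SSR2 was above in the hypothalamus-labelled libraries and below in whole brain (2.46% of all genes), and EDEM3 the reverse (3.41%).

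The heat effect differed between the tissues for 6 of 35 genes (17.1%) in 1 edgeR fit of all 12 libraries, beside 24.2% of the 16201 genes tested. The difference, heat effect in hypothalamus-labelled minus heat effect in whole brain libraries, was positive for 1 gene (2.86%, against 11.9% of all genes) and negative for 5 (14.3%, against 12.3%). ATF6 was the positive one, at 0.59 ± 0.149 (adjusted p = 0.0143): it fell in whole brain and was at 45.6, 43.5 and 50.6 CPM in control and 53.1, 49.3 and 48.0 CPM in heat-exposed hypothalamus-labelled libraries. OLFML2B, which overlaps it, had a difference of 0.74 ± 0.171 (adjusted p = 0.00985).

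ASNS had the largest negative difference, −0.68 ± 0.181 (adjusted p = 0.0179). It rose in whole brain, whereas in hypothalamus-labelled libraries it was at 32.8, 29.0 and 28.9 CPM in control and 21.4, 25.5 and 31.7 CPM after heat, with overlap. SEL1L differed by −0.58 ± 0.161 (adjusted p = 0.0208) and was at 44.8 ± 1.6 and 39.6 ± 5.84 CPM under the hypothalamus label. CANX differed by −0.47 ± 0.141 (adjusted p = 0.0296), with 423, 416 and 346 CPM in control and 357, 372 and 387 CPM in heat-exposed libraries there.

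EDEM3 was not called in either tissue, yet its heat effects differed by −0.41 ± 0.126 (adjusted p = 0.033). It was at 50.7, 58.2 and 56.1 CPM in control and 48.5, 47.0 and 45.2 CPM in heat-exposed hypothalamus-labelled libraries. In whole brain it was at 46.9, 43.5 and 47.8 CPM and at 53.6, 53.6 and 49.1 CPM. SDF2L1 differed by −0.46 ± 0.155 (adjusted p = 0.0448), with a positive log2 value in both tissues and the larger in whole brain. SERPINH1 and SSR2 missed the threshold, at 0.51 ± 0.192 (adjusted p = 0.069) and 0.38 ± 0.136 (adjusted p = 0.0585). Of 24 alternatives SERPINH1 was called in 9, among them DESeq2 (0.53, adjusted p = 0.0382) and the fit without heat-exposed hypothalamus-labelled library 1 (0.71, adjusted p = 0.00337), and SSR2 was called in 5.

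The number of calls for the tissue difference depended on single libraries, over all genes as well. With 1 library left out, 2340 to 4195 of all genes were called, beside 3917 with all 12 libraries. Without control whole brain library 2 only 1 of the 35 was called, without control hypothalamus-labelled library 2 it was 2, and without heat-exposed whole brain library 1 or 2 it was 3. Counts of higher and lower genes were 1 and 5, and became 2 and 4 with RLE scaling, 3 and 5 with an offset for gene length and 2 and 6 with the offset for chromosome. In that last fit CALR, at 0.29 ± 0.150 (adjusted p = 0.169) in the test above, turned to −0.42 and was called (adjusted p = 0.0381). HYOU1, P4HB and SERPINH1 were also called there, while ASNS and EDEM3 lost their calls. With reads recovered from the FPKM column of heat-exposed hypothalamus-labelled library 1, 3 of the 35 were called: ATF6, ASNS and SERPINH1. From the longer ER list 3 of 57 (5.26%) were higher and 11 (19.3%) lower, beside 11.9% and 12.3% of all genes, with MOGS at 1.15, NPLOC4 at 0.72, the oxidoreductase TMX3 at −0.96 and the oxidase ERO1B at −0.81. Of the 14 amino acid genes 2 (14.3%) were higher, PHGDH at 0.99 and SLC7A5 at 0.48, and 0 lower.

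In control embryos the stress sensor ERN1 and the ERAD gene EDEM1 were higher, and ATF4 and SEL1L lower, under the hypothalamus label than in whole brain. Between control hypothalamus-labelled and control whole brain libraries 10 of 35 genes were called (28.6%), beside 34.3% of all genes tested. Higher under the hypothalamus label were 5 (14.3%, against 16.7%) and lower 5 (14.3%, against 17.6%). By role, 1 of 3 sensors, 2 of 3 transcription factors and 1 of 2 ATF4 targets were called, against 0 of 9 chaperones, 1 of 6 disulfide isomerases, 3 of 7 ERAD genes and 2 of 5 translocon genes. In these control libraries 6 oligodendrocyte markers summed to 10760 to 21850 CPM under the hypothalamus label and 3423 to 5516 CPM in whole brain. For 7 endothelial markers the sums were 373.5 to 441.4 and 223.1 to 247.9 CPM. For 9 fibroblast markers they were 833 to 1157 and 1531 to 1718 CPM, and for 5 astrocyte markers they overlapped. For 8 choroid plexus markers they were 177 to 251 and 887 to 1322 CPM, with 6 called lower and 1 higher. TTR, which made most of the whole brain sum, had control means of 0.346 and 936 CPM. For 6 neuronal markers the sums were 4129 to 4671 and 3328 to 3590 CPM, with 1 called higher and 2 lower. The part of cell types in the differences of the ER genes was not tested.

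CHAC1 (chromosome 5, 23962600 to 23964677) had the largest difference. It was at 10.1, 18.6 and 12.9 CPM in control hypothalamus-labelled and at 6.94, 8.12 and 3.92 CPM in control whole brain libraries, a log2 difference of 1.13 ± 0.286 (adjusted p = 0.00799 in edgeR). Its 3 values under the hypothalamus label spread widely but stayed above all of whole brain. CHAC1 lies across 2078 bases within the span of INO80, on the opposite strand, which averaged 31.6 CPM and did not pass the test here (−0.11 ± 0.0871, adjusted p = 0.357).

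ERN1 was at 22.3, 22.0 and 24.2 CPM against 16.8, 15.4 and 14.01 CPM, higher by 0.57 ± 0.108 (adjusted p = 0.00121). ATF3 was at 4.29 to 4.89 against 2.72 to 3.01 CPM, higher by 0.66 ± 0.242 with an adjusted p of 0.0496 that was lost in 18 of 24 alternatives. ATF4 was at 257, 228 and 225 CPM against 299, 312 and 287 CPM, a log2 difference of −0.34 ± 0.085 (adjusted p = 0.00764). In ERN1 and ATF4 the control libraries of the tissues did not overlap.

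The ERAD genes differed in both directions. EDEM1 was at 25.1 to 31.8 CPM under the hypothalamus label against 19.3 to 22.2 CPM (0.51 ± 0.115, adjusted p = 0.00413), and EDEM3 at 50.7 to 58.2 against 43.5 to 47.8 CPM (0.26 ± 0.089, adjusted p = 0.0398). SEL1L was at 43.2, 44.7 and 46.4 CPM against 75.0, 59.6 and 68.1 CPM (−0.59 ± 0.114, adjusted p = 0.00138). ERP29, SEC61A1 and SSR3 were also lower under the hypothalamus label (−0.37 ± 0.101, −0.37 ± 0.0953 and −0.37 ± 0.108, with adjusted p of 0.0117, 0.00939 and 0.0182). SSR3 overlaps KCNAB1 on the other strand by 1020 bases. KCNAB1 averaged 96.7 CPM over all libraries, against 60.2 CPM for SSR3. It was lower under the hypothalamus label as well, at −0.96 ± 0.112 (adjusted p = 2.73e-05 in edgeR), and the part of shared reads in the difference of SSR3 was not tested.

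Leaving out 1 library gave 7 to 12 calls between the control tissues. Over all genes it gave 4200 to 6298, beside 5564 with all 12 libraries. EDEM3 was lost in 15 of 24 alternatives, SSR3 in 7, and ERP29 and SEC61A1 in 4 each, while ERN1, ATF4, CHAC1, SEL1L and EDEM1 were called in all 24. From the longer ER list 2 of 57 (3.51%) were higher and 9 (15.8%) lower under the hypothalamus label, beside 16.7% and 17.6% of all genes. Among them the membrane-bound transcription factors CREB3L2 and CREB3L1, relatives of ATF6, differed in opposite directions, at 47.7 ± 6.0 against 25.0 ± 1.18 CPM (0.93) and 22.6 ± 3.73 against 41.2 ± 2.87 CPM (−0.87). MLEC, a lectin of the ER, differed by 0.75 and WFS1, a membrane protein of the ER, by −0.74. Of the 14 amino acid genes 2 were higher (the transporter SLC7A1 at 0.42 and CBS at 0.46) and 4 lower (PSAT1 at −0.65 and EIF4EBP1 at −0.40 among them).

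**Figure D5:**
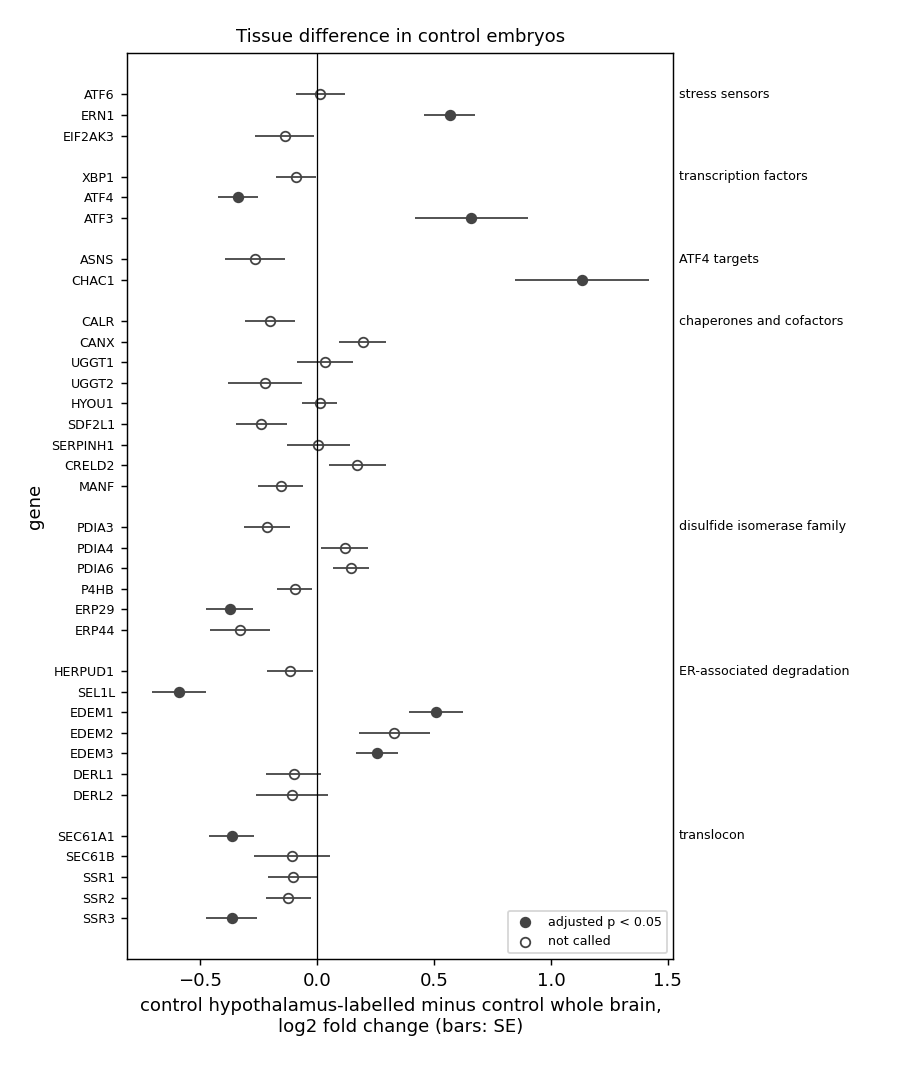
Log2 difference between control hypothalamus-labelled and control whole brain libraries (x axis, bars: SE) for the 35 genes by role, with filled points for an adjusted p below 0.05. CHAC1 lies farthest to the right at 1.13 and SEL1L farthest to the left at −0.59, and no chaperone is filled.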

How the data were processed

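RNA-seq libraries of chicken embryo brain tissue, 12 in all, were analysed from the deposited gene tables. The authors counted reads per gene with featureCounts (Subread 2.0.6, build GRCg7b), per the submitters' processing notes, and deposited the raw counts. They also deposited FPKM, a count divided by gene length and library size. In 11 libraries they matched the counts, and in heat-exposed hypothalamus-labelled library 1 they did not (0.2798% of genes within 0.1%), so the count column was used, although which column belongs to that library could not be settled. Reads recovered from that column were whole to within 0.01 in 100% of cases, with a total of 12161593. Of the aligner, the strand setting and multi-mapping reads, nothing is given in the sources used here. Rows without a gene name (634, 0.513% of counts) were kept in totals and tests.

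The whole count table went through edgeR 4.0.16 under R 4.3.3 (filterByExpr, TMM, quasi-likelihood test, Benjamini-Hochberg over all genes, threshold 0.05). Heat was tested within each tissue on 6 libraries. The tissue difference in the heat effect and the control tissues were tested in 1 fit of 12 libraries. SE is the fold change over the root of F and is approximate. CPM uses TMM over all 12 libraries, so its ratios differ slightly from fold changes of 6-library fits. Pairs of libraries within groups differed by more than counting noise (chi-square per degree of freedom from 5.462 to 34.65), so none was counted as a duplicate. The tests were first run on simulated data.

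The genes and lists were chosen with earlier results of these data known. Every gene called was named, or the 5 with the lowest p where fewer than 5 were called, and up to 4 of each other list. HSPA5 and DNAJB9 fall outside this rule. No pairing by replicate number was seen. Alternatives were DESeq2 1.42.0, RLE scaling, other count filters, protein-coding genes alone, a replicate block, 1 fit of all libraries, offsets for gene length and chromosome, recovered reads, limma 3.58.1 on log2(FPKM + 1) and log2(FPKM + 0.1), and each library left out.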

Additional observations from a re-analysis of the deposited data

Results flagged for a closer look

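The heat effect of 6 genes differed between the tissues by the test of the difference itself in edgeR, given as heat effect in hypothalamus-labelled minus heat effect in whole brain libraries on the log2 scale with the adjusted p. ATF6 differed by 0.5859 (adjusted p = 0.0143), with a log2 value of 0.10 under the hypothalamus label and −0.52 in whole brain. ASNS differed by −0.6762 (adjusted p = 0.0179), with −0.21 and 0.43. SEL1L differed by −0.5836 (adjusted p = 0.0208), with −0.18 and 0.36, and CANX by −0.4677 (adjusted p = 0.0296), with −0.09 and 0.34. EDEM3 differed by −0.4077 (adjusted p = 0.033), with −0.23 and 0.14. SDF2L1 differed by −0.4645 (adjusted p = 0.0448), with 0.35 and 0.77. Of 24 alternatives each, the call was lost in 2 for ATF6, 4 for ASNS, 7 for SEL1L, 13 for CANX, 16 for EDEM3 and 18 for SDF2L1.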

How the results depend on the processing

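Of 713 values under alternatives, for genes called in a comparison and the 5 with the lowest p under the hypothalamus label, 579 kept direction and side of the threshold, 131 lost and 2 gained a call, and 1 changed sign with its call: SSR2 in whole brain, −0.3026 and 0.25 with the offset for chromosome, where the median gene of chromosome 25 fell further. Over all 35 genes and 4 comparisons, alternatives gained 40 calls in 12 genes, 21 of them in the tissue difference in the heat effect. CALR had the other sign in 2 of these, both with the offset for chromosome: 0.46 in whole brain and −0.42 for the tissue difference. In whole brain 13 genes were called and 11 to 16 under the other alternatives (10 to 13 with 1 library left out), and SDF2L1, ERP29, PDIA4, ATF6, ERP44, ASNS, UGGT2, CANX and SEL1L were called in all 18. Under the hypothalamus label the count was 0, and 1 with DESeq2 (0 to 1 with 1 library left out). The tissue difference in the heat effect gave 6 calls, 3 with limma on log2(FPKM + 1) and on log2(FPKM + 0.1), 1 without a filter on FPKM, 3 with recovered reads, and 1 to 6 with 1 library left out. These were not all among the 6. Without a filter on FPKM the call was SERPINH1 (0.576, adjusted p = 0.0427 in limma), and all 6 were lost. In the other limma fits and with recovered reads the calls were ATF6, ASNS and SERPINH1. Control tissues gave 10 calls, 5 in each of the 3 limma fits and with recovered reads, and 7 to 12 with 1 library left out. The causes were not tested. The limma fits hold the FPKM column that does not match its counts. Calls over all genes follow for DESeq2 under the hypothalamus label and for fits that left out 1 library. For the other alternatives they are not given here, so those counts of the 35 stand without a background share. Over all genes the calls under the hypothalamus label numbered 7, 187 with DESeq2 and 0 to 39 with 1 library left out. In whole brain the calls over all genes numbered 6787, and 5473 to 6610 with 1 library left out. For the tissue difference in the heat effect they then numbered 2340 to 4195, and between control tissues 4200 to 6298.

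Same-numbered control and heat-exposed libraries did not deviate together (r of 0.0446, −0.247 and −0.355 under the hypothalamus label, −0.0199, −0.0369 and −0.0181 in whole brain). No pairing by number was seen, though 3 libraries per group are too few to exclude one. With the replicate block the calls were 0 under the hypothalamus label, 12 in whole brain, 0 for the tissue difference in the heat effect and 8 between control tissues. HYOU1, the smallest change called in whole brain (0.21), lost its call in 8 of 18 alternatives.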
